A study of Homo sapiens with 6 samples.

Results

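Transcripts of the cohesin ring, its protectors and separase were examined in SaOS-2 cells carrying a doxycycline-inducible p21 vector. The 10 genes were taken by symbol from the 23228 rows of the deposited table of normalized counts, and each was found. They form a core ring of 4 genes (SMC1A, SMC3, RAD21 and STAG2) and a set of 6 regulators (CDCA5, ESCO2, SGOL1, SGOL2, ESPL1 and PTTG1). SGOL1 and SGOL2 are the older symbols of the shugoshin genes SGO1 and SGO2. SaOS-2 is a human osteosarcoma line without functional RB or p53, and p21, the product of CDKN1A, is an inhibitor of cyclin-dependent kinases. RNA was sequenced from 3 libraries of untreated cells (p21 OFF, given as 0 h) and 3 libraries of cells given 1 μg/ml doxycycline for 24 h (p21 ON). Both groups carry the same Tet-inducible vector, and the comparison asks which transcripts depend on p21 in cells that lack RB. No library with the drug and without the vector was analysed here, so p21 and doxycycline cannot be told apart. With 0 h given for p21 OFF and 24 h for p21 ON, a difference in time cannot be told apart from them either.

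Cohesin is a ring that holds sister chromatids together from S phase until anaphase. SMC1A and SMC3 form its long arms, RAD21 is the kleisin that closes the ring, and STAG2 binds RAD21. Cohesion becomes stable in S phase when ESCO2 acetylates SMC3 and sororin, encoded by CDCA5, is recruited. Shugoshins guard cohesin at centromeres in early mitosis, and separase, encoded by ESPL1, cuts RAD21 at anaphase once its inhibitor securin, encoded by PTTG1, has been destroyed. The ring also shapes chromatin loops through interphase, whereas several of its regulators act only in S phase or mitosis.

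The values are counts of reads per gene that the authors divided by a size factor per library. Whole reads could be recovered from them, and the libraries held from 12795490 to 21975045 reads on genes. The library labelled p21 OFF replicate 1 stood apart: its chi-square per gene against the other p21 OFF libraries was 8.55 and 9.33, where pairs of the other libraries within a group gave 2.72 to 3.99. Leaving it out left the count of calls among the 10 genes at 7 lower and 0 higher. CDKN1A had 1187 to 1355 normalized counts in the p21 OFF libraries and 40470 to 46739 in the p21 ON libraries, in accordance with the labels of all 6 libraries. Among osteoblast markers, RUNX2, SP7, ALPL and COL1A1 had p21 OFF means from 3412 to 36026 normalized counts and none was called, while COL1A2 averaged 2.10 with p21 OFF and BGLAP was at 0 in every library. IBSP was called lower, with 129 with p21 OFF and 99.0 with p21 ON on average. The summed level of 7 markers of epithelial, blood and endothelial cells was 349 to 422 in p21 OFF and 342 to 383 in p21 ON libraries, most of it from EPCAM, and CD3E and CDH5 were at or near 0. Differences were tested with limma on log2(normalized count + 1), a scale that understates the change of low values, over the 13255 genes whose mean reached 10, and genes were called where p, adjusted by Benjamini-Hochberg over all of them, was under 0.05. The paper calls its RNA-seq replicates biological, while the labels number the samples of a group without naming separate cultures. The p-values measure the spread between these samples, and the labels do not say whether it is a spread between cultures.

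All 6 regulators fell after p21 induction, to between 0.33 and 0.47 of their p21 OFF level, while 3 of the 4 core ring genes were not called and RAD21 fell to 0.72. In all, 7 of the 10 genes were called lower and 0 higher, where 12.7% of all genes tested were called lower and 10.5% higher. At an unadjusted p under 0.05 the numbers were also 7 lower and 0 higher, and edgeR, DESeq2 and limma-voom on the recovered reads each gave 7 and 0. The median log2 fold change was -1.30 over the regulators and -0.045 over the core ring, against 0.0056 over all genes tested. For the 7 genes called lower, each p21 ON library lay below each p21 OFF library, which held for 21.3% of all genes tested. In bulk RNA, fewer cells in the cycle phases that hold these transcripts and less RNA per cell cannot be told apart.

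**Figure D1:**
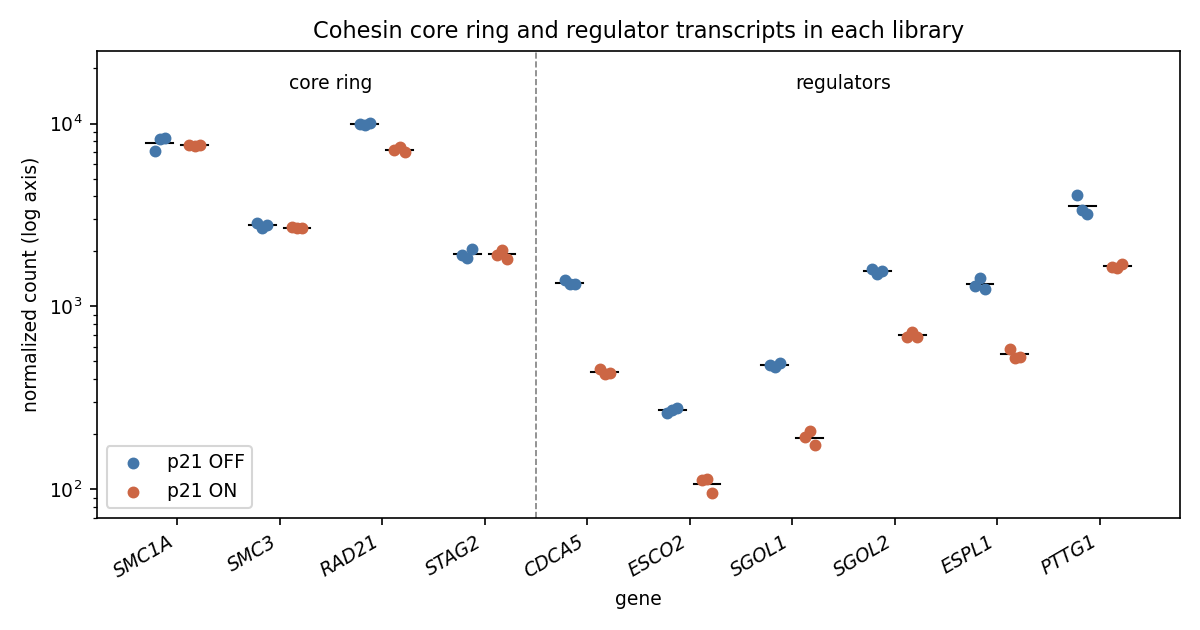
Normalized counts (log axis) of the 4 core ring genes, left of the dashed line, and the 6 regulators in each of the 3 p21 OFF (blue) and 3 p21 ON (orange) libraries, with a black line at each group mean. The groups are apart for RAD21 and for every regulator, and overlap for SMC1A, SMC3 and STAG2.

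CDCA5, encoding sororin, fell furthest of the 10 genes. Its normalized counts were 1394, 1322 and 1322 with p21 OFF and 453, 424 and 434 with p21 ON. The highest p21 ON value was thus below the lowest p21 OFF value by a wide margin, and the spread within each group was small. On the log2 scale the fold change was -1.62 (SE 0.07, limma adjusted p = 1.97e-11), and CDCA5 ranked 3 from the bottom when the 13255 tested genes were ordered by fold change.

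ESCO2, the acetyltransferase of SMC3 that works during S phase, was the weakest transcript of the set, with 261, 272 and 278 normalized counts in p21 OFF libraries and 112, 113 and 95.02 in p21 ON libraries. Even the lowest of these libraries still held 93 reads of ESCO2, and the groups did not overlap. Its log2 fold change was -1.34 (SE 0.11, limma adjusted p = 3.28e-08). The standard error was the largest among the 10 genes.

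Both shugoshins fell. SGOL1, which protects centromeric cohesin in mitosis, had 478, 469 and 488 normalized counts with p21 OFF and 192, 208 and 174 with p21 ON. SGOL2, its paralog, was about 3 times as high in counts, at 1592, 1509 and 1561 with p21 OFF and 683, 729 and 678 with p21 ON. In neither gene did the groups overlap. The log2 fold change was -1.32 for SGOL1 (SE 0.09, limma adjusted p = 3.29e-09) and -1.16 for SGOL2 (SE 0.06, limma adjusted p = 2.37e-10). Exons of SGOL1 overlap the antisense gene SGO1-AS1 over 15.8% of their length, and how the authors' counting used the strand is not given in the sources used here.

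Separase and its inhibitor fell together. ESPL1, encoding separase, had 1299, 1425 and 1245 normalized counts in p21 OFF libraries and 586, 521 and 531 in p21 ON libraries, a log2 fold change of -1.27 (SE 0.07, limma adjusted p = 3.6e-10). PTTG1, encoding securin, had 4060, 3368 and 3201 normalized counts in p21 OFF libraries and 1640, 1630 and 1713 in p21 ON libraries, a log2 fold change of -1.09 (SE 0.08, limma adjusted p = 4.43e-09). PTTG1 was the most abundant regulator and the one with the smallest fall, and its highest value was in p21 OFF replicate 1, without which the log2 fold change was -0.98. Its 95% confidence interval, -1.24 to -0.93, did not meet that of CDCA5, -1.76 to -1.48. PTTG1 has related copies, PTTG2 and PTTG3P, and 5.56% of the 51-base stretches of its canonical transcript, the length of the reads, occur unchanged in PTTG3P and 0 of 665 in PTTG2. PTTG3P averaged 174 ± 23.2 with p21 OFF and 76.3 ± 9.61 with p21 ON (SD, n = 3), and its fold change was -1.18 on the log2 scale (limma adjusted p = 4.27e-06), and the value of each gene is uncertain by the reads they share. PTTG2 had a mean of 8.36 with p21 OFF and 4.34 with p21 ON and was below the filter.

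In the core ring RAD21 alone was called. RAD21 had 9982, 9791 and 10028 normalized counts in p21 OFF libraries and 7158, 7398 and 6965 in p21 ON libraries, with no overlap. The log2 fold change was -0.47 (SE 0.06, limma adjusted p = 8.68e-06), smaller in size than that of any regulator. UTP23, a gene on the opposite strand whose exons share 4.0% of the exonic length of RAD21, had a log2 fold change of -0.16 and was not called (limma adjusted p = 0.103).

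The SMC subunits and STAG2 were not called. SMC1A had 7078, 8221 and 8291 normalized counts with p21 OFF and 7640, 7570 and 7590 with p21 ON, so the p21 ON values lay inside the p21 OFF range. SMC3, the other arm of the ring, had 2840, 2700 and 2800 with p21 OFF and 2705, 2690 and 2683 with p21 ON. STAG2 had 1900, 1832 and 2056 with p21 OFF and 1920, 2040 and 1814 with p21 ON. All 3 genes overlapped between the groups. Their 95% confidence intervals for the log2 fold change ran from -0.18 to 0.09 for SMC1A (limma adjusted p = 0.645), from -0.16 to 0.07 for SMC3 (adjusted p = 0.593) and from -0.14 to 0.14 for STAG2 (adjusted p = 0.976). A log2 change of the size of any regulator lies outside these intervals. The lowest value of SMC1A with p21 OFF was in replicate 1, and without it the log2 fold change was -0.12 (limma adjusted p = 0.0822). With the trend of fold change with gene length taken out, SMC1A, SMC3 and STAG2 reached -0.12, -0.14 and -0.10, none called, and 3 of the 4 core genes were lower at an unadjusted p under 0.05.

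**Figure D2:**
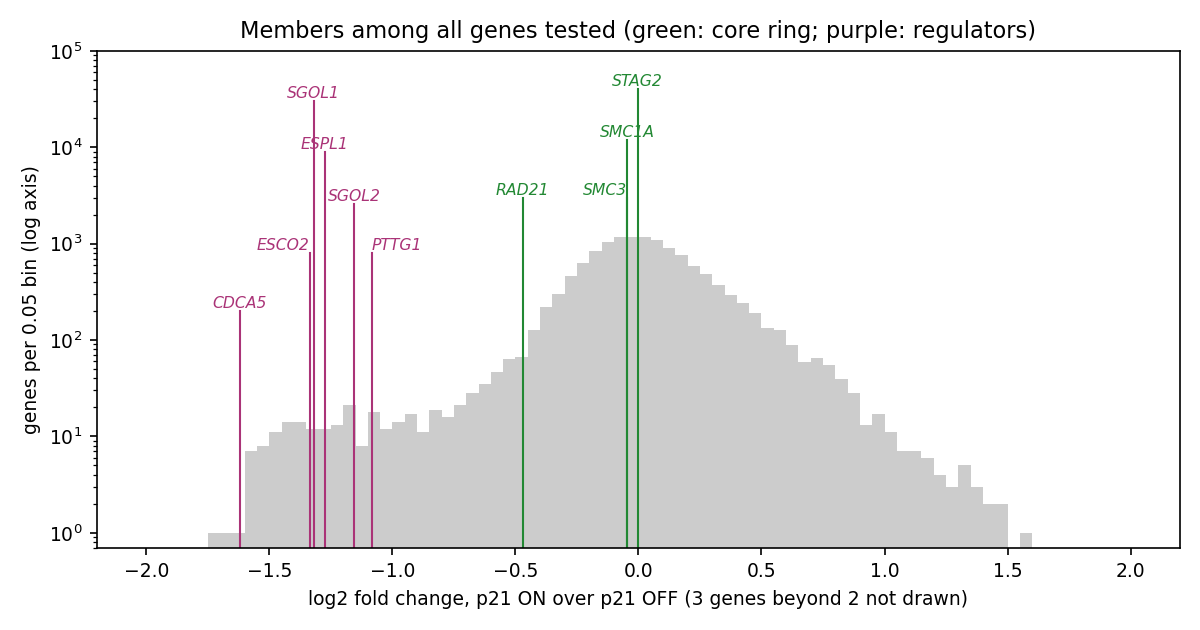
Histogram of the log2 fold change, p21 ON over p21 OFF, of the tested genes (grey, genes per bin of 0.05, log axis), with vertical lines at the 4 core ring genes (green) and the 6 regulators (purple); 3 genes beyond 2 are not drawn. The regulators stand in the lower tail between -1.62 and -1.09, and SMC1A, SMC3 and STAG2 stand near the centre.

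Among the 13255 genes tested, 152 (1.15%) were called lower with a log2 fold change of -1 or less, and all 6 regulators were in this tail. Ordered from the most negative fold change, CDCA5 stood at 3, ESCO2 at 60, SGOL1 at 66, ESPL1 at 76, SGOL2 at 109 and PTTG1 at 129. RAD21 stood at 456, and SMC3, SMC1A and STAG2 at 5407, 5409 and 6392, near the middle of all tested genes.

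To set the core ring against its regulators within each library, the mean log2(normalized count + 1) of the 4 core genes was subtracted from that of the 6 regulators. With p21 OFF this difference was -2.05, -2.11 and -2.20, and with p21 ON it was -3.25, -3.28 and -3.30. Relative to the ring, the regulators were thus lower with p21 ON, with no overlap between the groups. The group means were -2.12 ± 0.07 and -3.28 ± 0.03 (SD, n = 3 each), which differ by -1.16. Without RAD21 among the core genes the difference became -1.27. No test was run on these means, since the genes were chosen with results of these data known.

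Within the ring, RAD21 moved against its partners. The ratio of RAD21 to SMC3 was 3.52, 3.63 and 3.58 in p21 OFF libraries and 2.65, 2.75 and 2.60 in p21 ON libraries. Against STAG2 the ratio went from 5.16 ± 0.25 to 3.73 ± 0.11 (SD, n = 3 each), and against SMC1A from 1.27 ± 0.12 to 0.94 ± 0.03. The ratio of SMC1A to SMC3, the paired arms, was 2.83 ± 0.30 with p21 OFF and 2.82 ± 0.0078 with p21 ON. These are ratios of counts that are not divided by length, so their change between groups can be read and their size cannot.

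Of 4 gene pairs compared as ratios within libraries, ESCO2 to ESCO1 changed most. ESCO1 is the paralog of ESCO2 that acetylates SMC3 also outside S phase, and it had 531 ± 34.4 normalized counts with p21 OFF and 552 ± 47.7 with p21 ON (SD, n = 3 each; limma adjusted p = 0.672). The ESCO2 to ESCO1 ratio was 0.49, 0.55 and 0.49 in p21 OFF libraries and 0.21, 0.19 and 0.18 in p21 ON libraries, a log2 difference of -1.39 (p = 0.1 in a two-sided exact permutation test, which cannot give less with 3 libraries against 3). For SGOL1 to SGOL2 the ratio was 0.31 ± 0.0065 with p21 OFF and 0.27 ± 0.02 with p21 ON, a log2 difference of -0.16 without overlap (exact permutation test, p = 0.1). STAG2 to STAG1, the alternative ring subunits, went from 1.86 ± 0.04 to 1.76 ± 0.06, a log2 difference of -0.078 with p21 ON lower in each library (exact permutation test, p = 0.1). Exons of STAG1 overlap PCCB on the opposite strand over 21.2% of their length, and the strand setting of the counting is not given. Securin to separase, PTTG1 to ESPL1, was 3.13, 2.36 and 2.57 with p21 OFF and 2.80, 3.13 and 3.23 with p21 ON, and here the groups overlapped (log2 difference 0.19, exact permutation test, p = 0.3). The overlap came from p21 OFF replicate 1, and without it the log2 difference was 0.30 (exact permutation test, p = 0.2). Adjusted over the 4 pairs the p-values were 0.133 for the first 3 pairs and 0.3 for PTTG1 to ESPL1, so none could pass 0.05. The smaller differences depended on the processing. With the length trend taken out, the log2 difference was -0.11 for SGOL1 to SGOL2 (exact permutation test, p = 0.3) and 0.36 for PTTG1 to ESPL1 (p = 0.1). With the trend with GC content taken out, STAG2 to STAG1 was -0.055 (exact permutation test, p = 0.2).

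**Figure D3:**
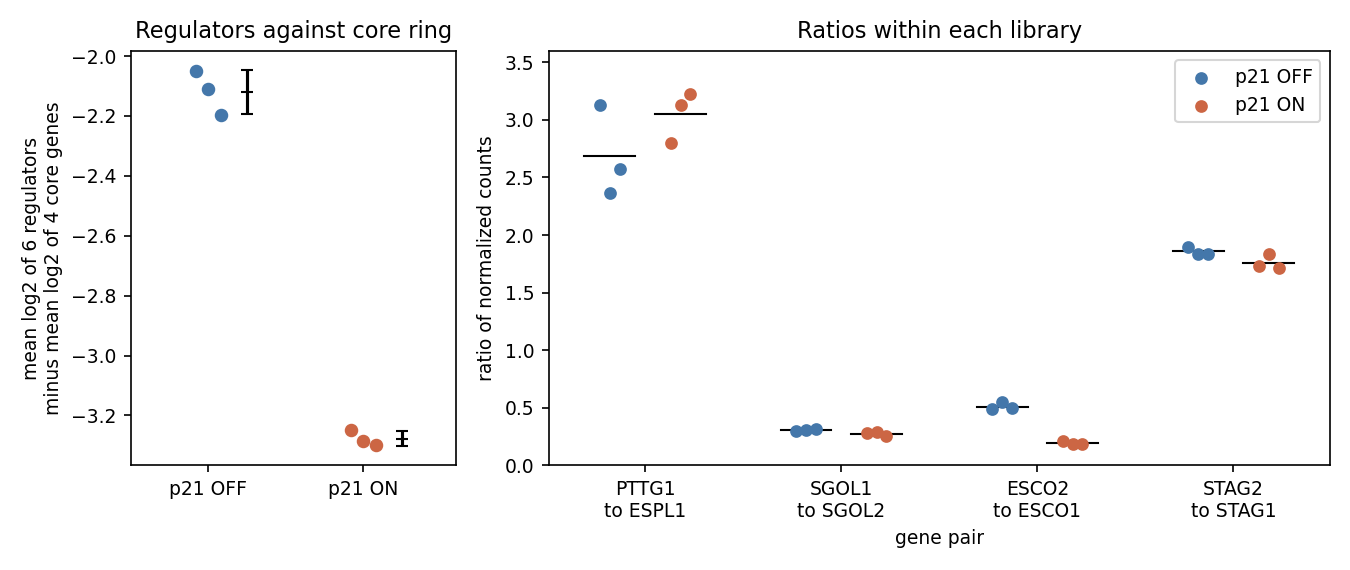
Left, mean log2(normalized count + 1) of the 6 regulators minus that of the 4 core ring genes in each library, with mean and SD (black) per group. Right, ratio of normalized counts for 4 gene pairs in each library, with a black line at each group mean; the ESCO2 to ESCO1 ratio drops from 0.51 to 0.19 on average, while the PTTG1 to ESPL1 points of the groups overlap.

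Levels were compared between genes per kilobase of exon, with the union of annotated exons as the length. In p21 OFF cells PTTG1 was highest at 1794 ± 231 normalized counts per kilobase, followed by SMC1A at 726 ± 62.9 and RAD21 at 691 ± 8.75, which overlapped each other (SD, n = 3 each). CDCA5 at 345, SGOL2 at 245, SMC3 at 179 and ESPL1 at 149 came next without overlap between neighbours. SGOL1 at 128 and STAG2 at 121 overlapped, and ESCO2 was lowest at 34.6. In p21 ON cells the 4 core genes held ranks 2 to 5, with SMC3 at 174 and STAG2 at 120 per kilobase. CDCA5 at 112 and SGOL2 at 110 came below them, and the values of both overlapped each other and those of STAG2. PTTG1 still ranked 1 and ESCO2 10. The order depends on the length taken: by the canonical transcript, RAD21 at 2714 stood above SMC1A at 810 in p21 OFF cells, and STAG2 above ESPL1. By that length SMC3 at 503 also stood above SGOL2 at 347 with p21 OFF. With p21 ON, STAG2 at 311 then stood above CDCA5 at 177 and SGOL2 at 156 without overlap.

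Promoter sequences are shown because the 6 regulators moved together and G2/M promoters are known for the cell cycle genes homology region (CHR), a short element bound by the MuvB complexes, often near a CCAAT box. RefSeq's promoter table held 8 of the 10 genes, and RAD21 and ESCO2 are not shown. For each gene the most downstream listed start was used, from 160 bases before it to 20 bases from it, and each stretch matched GRCh37 at a single place. Capitals mark CHR-type hexamers and the CCAAT box, searched on both strands. The hexamer TTTGAA reads as TTCAAA in reverse, the hexamer CTTGAA as TTCAAG and the box CCAAT as ATTGG, whereas the hexamers spelled TTCGAA and, in other genes, TTTAAA read alike on both strands. The regulators are shown first.
CDCA5 (chr11:64851493-64851672, minus strand): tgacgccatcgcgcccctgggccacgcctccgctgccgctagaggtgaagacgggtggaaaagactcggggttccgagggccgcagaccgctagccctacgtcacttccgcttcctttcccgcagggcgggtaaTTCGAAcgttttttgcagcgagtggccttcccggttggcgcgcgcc
SGOL1 (chr3:20227679-20227858, minus strand): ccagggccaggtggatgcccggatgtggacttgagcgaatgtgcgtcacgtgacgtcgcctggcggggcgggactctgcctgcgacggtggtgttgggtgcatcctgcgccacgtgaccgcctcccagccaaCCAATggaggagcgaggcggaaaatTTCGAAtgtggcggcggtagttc
SGOL2 (chr2:201390770-201390949, plus strand): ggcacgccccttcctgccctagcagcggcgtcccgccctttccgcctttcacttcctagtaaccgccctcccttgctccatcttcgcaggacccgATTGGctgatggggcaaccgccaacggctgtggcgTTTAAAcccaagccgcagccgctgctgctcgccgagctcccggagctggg
ESPL1 (chr12:53661923-53662102, plus strand): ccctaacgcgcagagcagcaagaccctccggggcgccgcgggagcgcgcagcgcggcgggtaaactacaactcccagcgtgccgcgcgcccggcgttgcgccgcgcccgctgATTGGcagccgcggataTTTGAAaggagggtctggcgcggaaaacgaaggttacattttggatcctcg
PTTG1 (chr5:159848757-159848936, plus strand): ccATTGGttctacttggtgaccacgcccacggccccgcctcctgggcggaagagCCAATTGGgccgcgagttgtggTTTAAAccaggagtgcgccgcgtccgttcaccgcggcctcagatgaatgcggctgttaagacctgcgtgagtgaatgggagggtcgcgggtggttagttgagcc
SMC1A (chrX:53449584-53449763, minus strand): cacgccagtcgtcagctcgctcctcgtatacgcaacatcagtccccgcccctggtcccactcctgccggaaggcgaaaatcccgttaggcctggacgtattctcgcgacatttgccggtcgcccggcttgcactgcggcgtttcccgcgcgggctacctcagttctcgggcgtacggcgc
SMC3 (chr10:112327293-112327472, plus strand): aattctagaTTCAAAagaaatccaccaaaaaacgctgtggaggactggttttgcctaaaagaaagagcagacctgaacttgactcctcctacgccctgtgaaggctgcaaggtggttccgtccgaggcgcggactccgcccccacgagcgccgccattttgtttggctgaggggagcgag
STAG2 (chrX:123095748-123095927, plus strand): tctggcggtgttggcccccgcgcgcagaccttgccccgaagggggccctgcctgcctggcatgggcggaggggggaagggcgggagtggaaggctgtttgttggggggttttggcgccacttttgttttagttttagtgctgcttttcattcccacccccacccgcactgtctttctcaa

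A CHR-type hexamer was found in 5 of the 5 regulator stretches and in 1 of the 3 core ring stretches, against 20.2% of the 35116 promoters of the table over the same window. A CCAAT box stood in 4 of the 5 regulators and in 0 of the 3 core genes, against 25.7% of all. In CDCA5 the hexamer began 26 bases before the start, in ESPL1 31, in SGOL2 30 and in SGOL1 3, and in PTTG1 it began 84 bases before the start used here. In SMC3 it lay 151 bases before the start. In PTTG1 2 of the 3 CCAAT matches overlap each other on opposite strands. A match of letters is a description and was not tested as a site. The window was chosen after the data were seen. A single start per gene was used here, while the shares run over every listed start. For STAG2, with 3 listed starts, the canonical start lies outside the stretch shown. For PTTG1, with 2 listed starts, the canonical start (chr5:159848862) lies inside it, between the hexamer and the start used. The hexamer of PTTG1 is therefore nearer to the canonical start than to the start used.

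The other genes of the pathway differed by role. Of 38 listed genes 35 were tested. Where 12.7% of all genes tested were called lower and 10.5% higher, 18 of these 35 were called lower and 0 higher. At an unadjusted p under 0.05 the numbers were 20 lower and 2 higher, while edgeR called 18 and 0 and DESeq2 16 and 0. The count of lower calls was 12 without the filter on low values, 13 on removal of either replicate 1 or replicate 3 of p21 ON, 14 when p21 OFF replicate 2 was removed or libraries were scaled by their size, and 20 when p21 OFF replicate 1 was removed or the GC trend was taken out. Their median log2 fold change was -0.19. The genes that keep cohesin loading, turning over and looping through the cycle were not called. These are the loader genes NIPBL (log2 fold change 0.16, limma adjusted p = 0.121) and MAU2 (0.12, adjusted p = 0.168), the release factor gene WAPAL, now WAPL (-0.069, adjusted p = 0.477), its partners PDS5A (0.11, adjusted p = 0.184) and PDS5B (0.03, adjusted p = 0.79), the ring subunit gene STAG1 (0.07, adjusted p = 0.452), the SMC3 deacetylase gene HDAC8 (-0.079, adjusted p = 0.543) and ESCO1. For NIPBL a higher call appeared when libraries were scaled by their size (log2 fold change 0.20) and when p21 OFF replicate 3 was removed (0.22).

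All 8 listed mitotic kinase, checkpoint and anaphase genes that act upstream of shugoshin or separase were called lower, against 12.7% of all genes tested. Their log2 fold changes ran from -1.74 to -1.30 around a median of -1.46. AURKB, a mitotic kinase that corrects microtubule attachments, had the most negative fold change of the 13255 genes tested, with 926 ± 71.8 normalized counts in p21 OFF and 276 ± 23.1 in p21 ON libraries (SD, n = 3). CDC20, the activator of the ligase that destroys securin, fell by 1.55 on the log2 scale, and MAD2L1, which restrains CDC20, fell by 1.48. GSG2, the histone kinase gene now named HASPIN, fell by 1.47 and BUB1, whose histone mark recruits shugoshins, fell by 1.30. The mitotic kinase gene PLK1 fell by 1.44, the cyclin gene CCNB1 fell by 1.39 and its kinase partner CDK1 fell by 1.38 on that scale.

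Of 7 genes for establishing cohesion at replication forks, 4 were called lower, against 12.7% of all genes tested. DSCC1 and CHTF18, subunits of the alternative clamp loader that promotes cohesion, averaged 432 ± 49.8 and 793 ± 79.5 with p21 OFF and 189 ± 10.5 and 409 ± 39.4 with p21 ON (SD, n = 3), with log2 fold changes of -1.19 (limma adjusted p = 4.57e-08) and -0.95 (adjusted p = 2.95e-07). Smaller falls were those of TIMELESS (-0.30, adjusted p = 0.00131) and of the helicase gene DDX11 (-0.24, adjusted p = 0.0408), whose groups overlapped. CHTF8, another subunit of that loader, stood at -0.063 (adjusted p = 0.541), though 84.6% of its exonic length is shared with DERPC on the same strand. WDHD1 and TIPIN were not called either, and TIPIN shares 21.1% of its exonic length with RPL9P25 on the same strand. The call of DDX11 was lost in 6 of 19 alternatives, with an adjusted p of up to 0.307. They were the removal of p21 OFF replicate 2, of p21 ON replicate 2 and of p21 ON replicate 3, scaling by library size, no filter on low values, and DESeq2.

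Among 9 subunits of the phosphatase PP2A, the partner of shugoshins, the called changes were small. PPP2CB (-0.28), PPP2R5A (-0.25), PPP2R1B (-0.24), PPP2CA (-0.24) and PPP2R1A (-0.19) were called lower, where 12.7% of all genes tested were. The other 4 ranged from -0.17 to 0.16. PPP2CA shares 26.1% of its exonic length with another annotated gene on the same strand. The number of calls, 5, became 0 without p21 ON replicate 1 or without the filter on low values and 1 without p21 ON replicate 3. It was 2 when p21 OFF replicate 2 was removed or libraries were scaled by their size. It was 3 when p21 OFF replicate 3 was removed, when p21 ON replicate 2 was removed and with the replicate number as a block. It was 7 when p21 OFF replicate 1 was removed or the GC trend was taken out and 6 with limma-voom, and with the length trend taken out PPP2R5B was called higher beside 5 lower. Of the meiotic ring genes, REC8 and STAG3 had means of 31 and 19 with p21 OFF, RAD21L1 was at 0 in each library and SMC1B was below the filter. STAG3 stood at 0.64 on the log2 scale and was not called (limma adjusted p = 0.0511), although 4 alternatives called it higher. Exons of STAG3 overlap CASTOR3P on the opposite strand over 20.8% of their length.

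**Figure D4:**
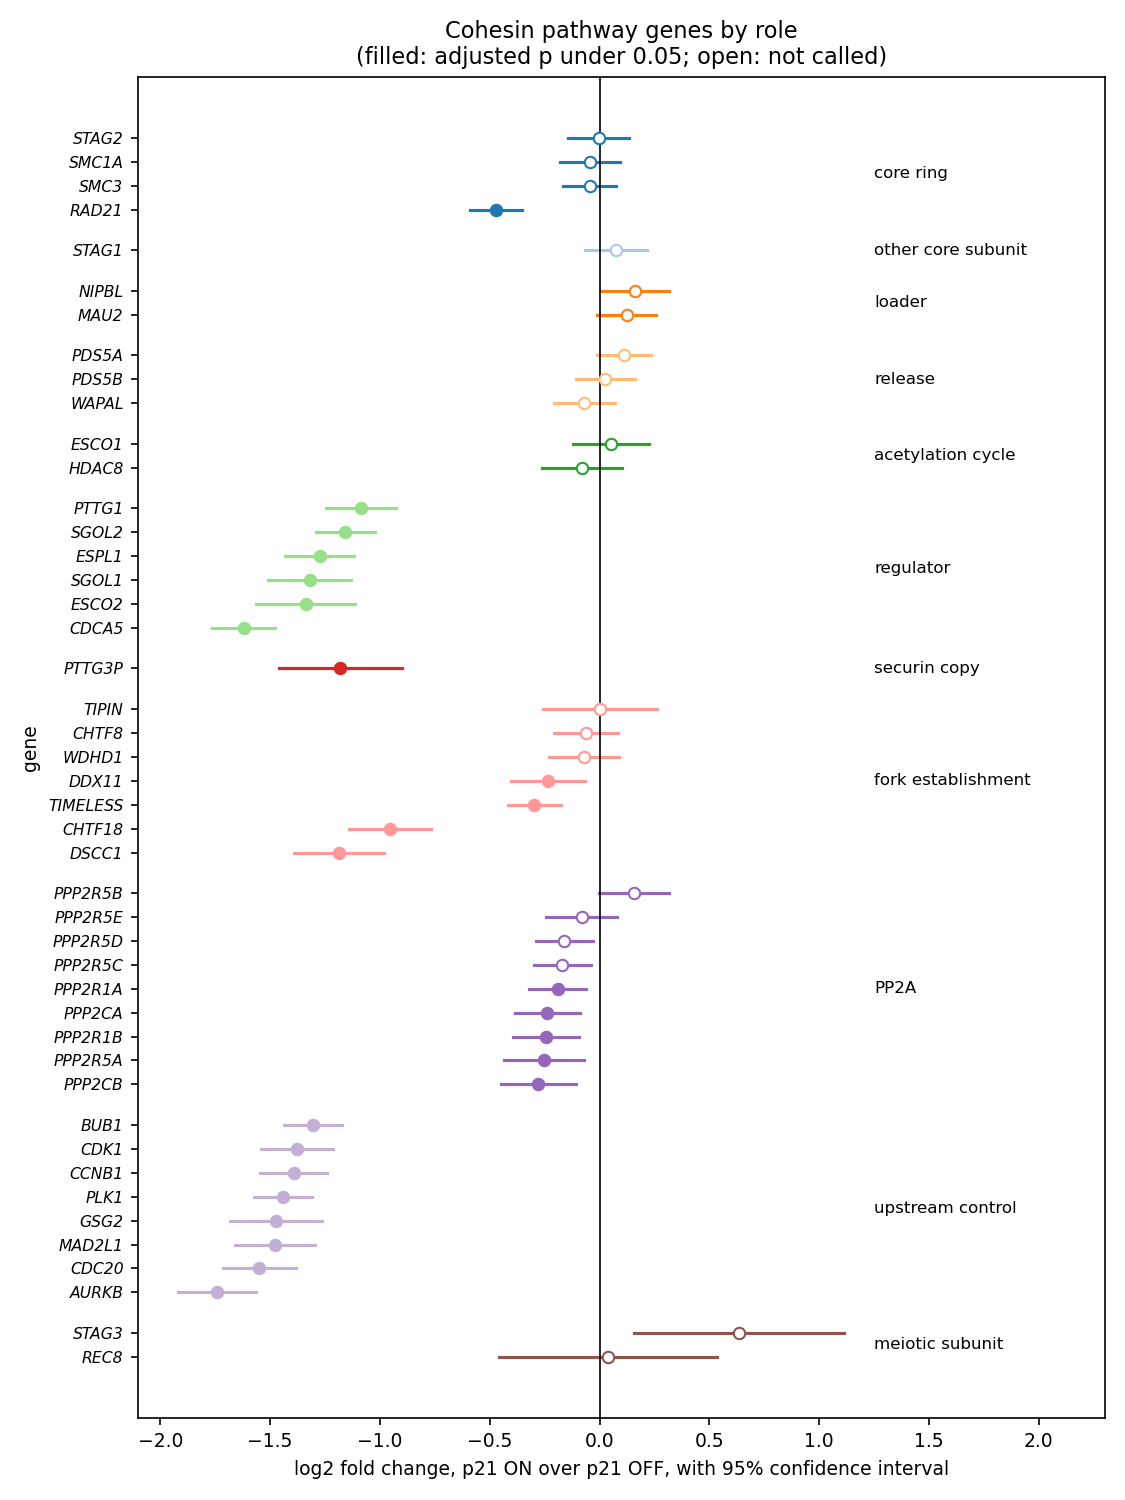
Log2 fold change, p21 ON over p21 OFF, with 95% confidence interval for the 10 members and 35 other cohesin pathway genes, grouped by role; filled points were called at an adjusted p under 0.05 and open points were not. Regulators and upstream control genes lie below -1. Core subunits other than RAD21, loader, release and acetylation cycle genes lie between -0.08 and 0.16 and were not called, with the interval of NIPBL just above 0.

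The genes with the profile most like the mean of the 6 regulators over the 6 libraries were TPX2, PRC1 and CCDC99, with Pearson's r of 1.00, 0.9994 and 0.9994 among 11388 genes with a mean of at least 50. TPX2 and PRC1 encode spindle proteins, and TPX2 averaged 8115 ± 192 normalized counts with p21 OFF and 3622 ± 115 with p21 ON (SD, n = 3). Nearest to the mean of the core ring were PREP, MYLIP and KIAA0586, with r of 0.996, 0.993 and 0.991 and log2 fold changes of -0.20, -0.16 and -0.24. The core ring mean that they were set against differed by -0.14 between the groups with RAD21 and by -0.03 without it, so most of its difference was that of RAD21. All points share the 3 libraries against 3, so the difference between groups can set most of these correlations.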

How the data were processed

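The authors made stranded mRNA libraries, mapped single-end reads to hg19 with STAR, counted them per gene name with HTSeq and divided the counts by DESeq2 size factors. The deposited values are a signal per gene and library, with tool versions and strand setting not given in the sources used here. In each library 100% of values were whole multiples of one step (tolerance 0.01), which returned the reads, and edgeR with TMM on them called 1401 genes higher and 1647 lower. Of 23228 rows, 21020 were matched to GENCODE release 44 on GRCh37, the build of hg19, 2110 of them by an older symbol. The main test was limma 3.58.1 in R 4.3.3 (trend, pseudocount 1, mean of at least 10, no covariates), with pairs of genes tested by exact permutation in scipy 1.17.1. The alternatives used edgeR 4.0.16, DESeq2 1.42.0 and limma-voom on recovered reads, other scalings, pseudocounts and filters, a replicate block, length and GC trends (lowess span 0.3), and each library left out. On simulated counts of this comparison over 13098 genes, limma called 93.9% of 99 genes changed by 1 and 85.9% of 99 changed by 0.5 on the log2 scale, with 8 unchanged genes called. Chi-square values between replicates, divided by the genes compared, were 2.72 or more, above sampling noise, so no library was a copy. Genes named are the 10 members, CDKN1A, listed pathway genes that were called, fixed partners, paralogs and copies, and the 3 genes most like each mean profile. UTP23 was named after its values were seen, and so were MAU2, HDAC8, the genes of the PP2A, fork and meiotic lists that were not called, and the marker genes beyond their list. The members and lists were chosen with earlier results of these data known. The promoter window and the canonical length were chosen after seeing the data. The authors' lists of cell cycle genes were used to sort the members and pathway genes into G1/S and G2/M genes in the last section. A marker gene of the osteoblast list is not reported here.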

Additional observations from a re-analysis of the deposited data

How the results depend on the processing

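Over 19 alternatives the 7 members called lower were called lower each time and none was called higher, with RAD21 between -0.56 and -0.42 and CDCA5 between -1.65 and -1.58 on the log2 scale. SMC1A, SMC3 and STAG2 were not called in any. With the length trend taken out they were -0.12, -0.14 and -0.10, and without p21 OFF replicate 1 SMC1A was -0.12. STAG2 changed sign under library size scaling (0.0404), with the GC trend taken out (0.0425) and under DESeq2 (0.0005). It ranged from -0.0463 to 0.0431 with a library left out (0.0431 without p21 OFF replicate 3, 0.0383 without p21 ON replicate 3). The difference between regulators and core ring, -1.16, was -1.05 with the length trend taken out, -1.36 with medians in place of means and -1.27 without RAD21. The highest over the lowest level per kilobase, 51.8, was 68.8 with canonical transcripts. Other pathway genes called higher, 0, were 1 with pseudocount 10 or at least 10 counts in every library, 2 under library size scaling, 1 with the length or the GC trend taken out and 0 to 1 with a library left out. Their lower calls, 18, ranged from 12 without a filter to 20. Of all genes, 1393 were called higher and 1681 lower, against 254 and 503 without a filter. With a library left out, 695 to 1486 were higher and 887 to 1660 lower, the lowest numbers being those without p21 ON replicate 1. Without p21 ON replicate 3 they were 739 and 1077. Library size scaling gave 2034 and 1194, or 63.0% of calls higher against 45.3%. The causes were not tested. The replicate numbers do not pair the libraries (r of deviations -0.057, -0.025 and -0.048 for equal numbers, and no library correlated best with its own number), and the replicate block gave 1407 higher and 1513 lower and the same count of 7 members lower. Depth limits the values of PTTG2 and SMC1B, which were not tested.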

Other observations

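The study's low-stringency lists, drawn from other cell cycle data, place genes of the cohesin pathway in both waves. Of 8 G1/S genes tested here, 3 were called lower and 0 higher by limma (at an unadjusted p under 0.05, 3 lower and 0 higher), with a median log2 fold change of -0.059. Over all genes tested, 12.7% were called lower and 10.5% higher. ESCO2 and DSCC1 fell by 1.34 and 1.19 on the log2 scale, and DDX11 fell by 0.24. SMC1A, PDS5A, STAG1, WDHD1 and TIPIN ranged from -0.072 to 0.11 and were not called.

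Of 15 G2/M genes tested here, 13 were called lower and 0 higher by limma (at an unadjusted p under 0.05, 14 lower and 1 higher), with a median log2 fold change of -1.32. The shares over all genes tested were 12.7% lower and 10.5% higher. These 15 are cohesin pathway genes chosen with earlier results known, include the 8 upstream mitotic genes, and do not stand for G2/M genes at large. RAD21 fell by 0.47 on the log2 scale, less than the other 12. NIPBL had a log2 fold change of 0.16 and PPP2R5C one of -0.17, and neither was called. CDCA5, with the largest fall of the 10 genes, was found in neither list.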
